A study of Mus musculus with 18 samples.

Results

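The leukocyte integrins described here are 8 subunit genes, chosen by name from the 35869 gene symbols listed for every library: Itgb2, Itgam, Itgax and Itgal of the beta2 family, Itga4 and Itgb7, and the laminin and matrix receptor subunits Itga6 and Itga9. All 8 were found. They lie on 5 mouse chromosomes in GRCm38. The beta2 alpha chains share chromosome 7, with Itgal at 127296260-127335138, Itgam at 128062640-128118491 and Itgax at 128129547-128150657, all on the + strand. Itgam and Itgax are 11055 bases apart, while 727501 bases separate Itgal from Itgam. Itga6 (71745616-71858416) and Itga4 (79255426-79333123) share chromosome 2 on the + strand. Itga9 is on chromosome 9 (118606690-118901003, + strand), Itgb2 on chromosome 10 (77530252-77565708, + strand) and Itgb7 on chromosome 15 (102215995-102231944, - strand).

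RNA was measured in brain microglia and astrocytes of C57BL/6 mice, isolated with enzymes and inhibitors and sorted by fluorescence. All mice were gavaged with tamoxifen, 180 mg/kg, on 5 occasions. The controls had Cx3cr1CreERT2, a recombinase that needs tamoxifen and is driven by the Cx3cr1 locus, so it acts in microglia and also in other macrophages that express Cx3cr1. Mice called KO carried Cx3cr1CreERT2 together with loxP-flanked Tgfb1 (Tgfb1 fl/fl), so that the recombinase was present in both genotypes. Control microglia came from mice 1, 2, 4 and 5 (n = 4), KO microglia from mice 1 to 4 (n = 4), control astrocytes from mice 1 to 5 (n = 5) and KO astrocytes from mice 1 to 4 (n = 4), where mouse numbers are counted within a genotype. Ages were not given in the labels used here. Another library, whose labels disagree on its cell type, was left out. The study asked what loss of the TGF-beta1 made by microglia does to these cells.

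Values are TPM, a unit of transcript abundance that scales each gene to its length and each library to the same total, so levels of different subunits can be set side by side but read depth is not known. Between 12456 and 13127 genes reached 1 TPM in the microglial libraries and between 14086 and 15484 in the astrocyte libraries. Tgfb1, the targeted gene, was at 2.8 to 3.4 TPM in control microglia and at 1.3 to 2.0 TPM in KO microglia, and the ranges did not overlap (exact two-sided permutation p = 0.0286, the smallest that 4 against 4 allows). Its log2 difference was -0.57 (SE 0.162, adjusted p = 0.0258, limma); without the microglia of control mouse 1 or 4 or of KO mouse 1, 2 or 3, without the filter or with mouse numbers as a block the adjusted p was between 0.0510 and 0.177. The 12 homeostatic microglial markers summed to between 50309 and 54138 TPM in control microglia and to between 10757 and 12000 TPM in KO microglia. All 12 fell. The 10 astrocyte markers summed to at least 16339 TPM in every astrocyte library and to at most 630.2 TPM in every microglial library. Oligodendrocyte markers were also high in the astrocyte libraries, at 4623.1 to 6982.4 TPM in controls and 6645.6 to 16869.8 TPM in KO mice. In KO mouse 4 they exceeded the astrocyte markers (16338.9 TPM). The part of oligodendrocytes in the integrin values of these libraries was not tested. All KO libraries and those of control mice 1 and 2 held Xist at 28.6 TPM or more, while those of control mice 3, 4 and 5 held Ddx3y instead, so the sexes were mixed among the controls only.

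Integrins are cell surface receptors made of 1 alpha and 1 beta chain, and both chains must be made for either to reach the membrane. Signals inside the cell switch them to a form that binds ligand, and bound integrins link the matrix or another cell to actin. The beta2 integrins are found on leukocytes. Itgam pairs with Itgb2 to form CD11b/CD18, or complement receptor 3, which microglia use to take up complement-coated material and by which they are commonly sorted. Integrin alpha4 pairs with beta1 or beta7 to bind VCAM1 on vessels and other cells. It is carried by circulating leukocytes, and antibodies against it keep such cells out of the brain in multiple sclerosis.

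In microglia the 8 genes moved in opposite directions in KO mice. Itgam, Itgb2 and Itga6 fell, Itga4 and Itga9 rose, Itgax did not pass the test, and Itgal and Itgb7 were too low to be tested in the fit over all genes. For 6 of the 8 genes the KO and control ranges did not overlap, 3 of them being higher in KO microglia (Itgal, Itga4 and Itga9) and 3 lower (Itgam, Itgb2 and Itga6). Of all 13054 tested genes 30.6% had ranges that did not overlap (14.8% higher and 15.7% lower). That share leaves out genes below the filter, such as Itgal and Itgb7. Among the tested members, all but Itgax had ranges that did not overlap. Of the 6 tested genes 5 passed an adjusted p of 0.05, against 28.4% of all 13054 tested genes (14.2% higher and 14.2% lower). Their median log2 difference was -1.04, against 0.00399 over all tested genes. Itga4 was among these 6 only because its KO libraries reached the filter. The sum of the 8 genes was 684.5 to 725.7 TPM in control microglia and 205.0 to 265.0 TPM in KO microglia.

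**Figure D1:**
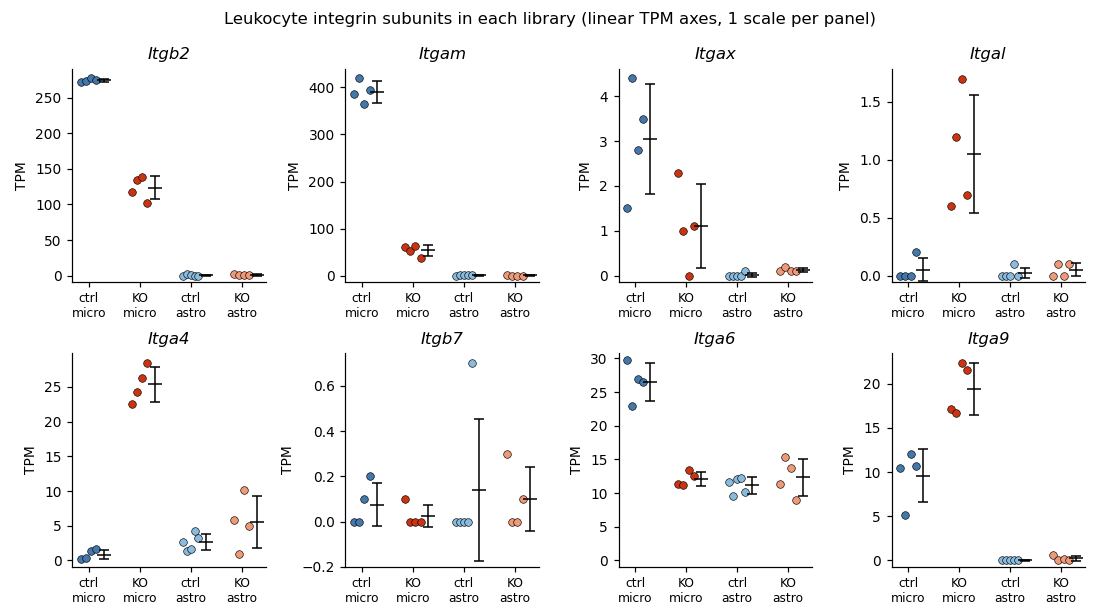
TPM of each of the 8 integrin genes (vertical axis, linear, its own scale in each panel) in control (ctrl) and KO microglia (n = 4 each) and control (n = 5) and KO (n = 4) astrocytes. Points are libraries and bars are mean ± SD, which can reach below 0 for genes near 0; control microglia sit at 364.1 to 419.2 TPM for Itgam and KO microglia at 38 to 63.0 TPM, while for Itga4 control microglia sit at 0.2 to 1.6 TPM and KO microglia at 22.5 to 28.4 TPM.

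Itgb2 encodes beta2 (CD18), the shared partner of all leukocyte CD11 chains. It was at 272.0, 273.7, 277.2 and 274.9 TPM in microglia of control mice 1, 2, 4 and 5, and at 118.0, 134.9, 138.3 and 102.7 TPM in those of KO mice 1 to 4. Every KO library was below every control library, and the 4 controls were nearly alike. The mean fell from 274 ± 2.19 to 123 ± 16.5 TPM (SD, n = 4 each), a 2.22-fold difference, with a log2 difference of -1.16 (SE 0.105, adjusted p = 3.21e-05, limma). In these bulk samples less RNA per cell and fewer cells that make a transcript cannot be told apart.

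Itgam encodes alphaM (CD11b). Control microglia held 385.1, 419.2, 364.1 and 394.5 TPM in mice 1, 2, 4 and 5, which placed the gene at rank 414 of 35869 by mean level. KO microglia held 61.3, 52.2, 63.0 and 38 TPM, so that the highest KO library was far below the lowest control library, and the rank was 2661. The mean fell from 391 ± 22.8 to 53.6 ± 11.4 TPM (SD, n = 4 each), a 7.29-fold difference, with a log2 difference of -2.87 (SE 0.153, adjusted p = 1.19e-06, limma). Among all 13054 tested genes this was the fall of rank 102 by size, while that of Itgb2 had rank 706.

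Itgax encodes alphaX (CD11c), which marks dendritic cells and microglia in disease or development. Control microglia held 1.5, 4.4, 2.8 and 3.5 TPM and KO microglia 2.3, 1.0, 0.0 and 1.1 TPM. The ranges overlapped, since KO mouse 1 was above control mouse 1. The log2 difference was -1.01 (SE 0.372, 95% interval -1.85 to -0.18) and did not pass (adjusted p = 0.0709, limma). It passed without control mouse 1 (adjusted p = 0.0398) or without KO mouse 1 (0.0342), and in 1 fit over all 4 groups (0.0101).

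Itgal encodes alphaL (CD11a), which pairs with beta2 to form LFA-1, the ICAM receptor of lymphocytes. It was listed at 0.0 TPM in 3 control microglial libraries and at 0.2 TPM in that of control mouse 5. KO microglia held 0.6, 1.2, 1.7 and 0.7 TPM, all above the controls but close to the bottom of the scale. The difference of mean log2(TPM + 1) was 0.94, with an exact two-sided permutation p of 0.0286, the smallest that 4 against 4 allows. Adjusted over the 8 such tests of members below the filter it was 0.159. In limma without the filter, over 25621 genes, Itgal passed (0.94, SE 0.177, adjusted p = 0.00761).

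The beta2 alpha chains thus kept Itgam as their main transcript. Itgam made up 99% to 99.6% of the summed TPM of Itgam, Itgax and Itgal in control microglia and 95.5% to 97.4% in KO microglia. That sum was 366.9 to 423.6 TPM in controls and 39.8 to 64.7 TPM in KO mice, a larger fall in proportion than that of Itgb2. The ratio of Itgb2 to the alpha chains was 0.646 to 0.756 in control microglia and 1.84 to 2.58 in KO microglia, without overlap. Control microglia therefore held more alpha than beta2 transcript per length in all 4 mice, and KO microglia held more beta2 than alpha transcript in all 4.

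The proximal promoters of Itgam, Itgax and Itga4 are shown because the first 2 are neighbours with unlike levels and the third belongs to the gene that rose most among the 8. Each is the 250 bases before the RefSeq start site, in GRCm38.p6, on the + strand: Itgam at chr7:128062390-128062639, Itgax at chr7:128129300-128129549 and Itga4 at chr2:79255176-79255425. Capitals mark matches, on either strand, to GAGGAA (the core bound by PU.1, a macrophage transcription factor), CAGAC (a SMAD element) or GGGCGG (a GC box), and no matches of different motifs overlap.
Itgam: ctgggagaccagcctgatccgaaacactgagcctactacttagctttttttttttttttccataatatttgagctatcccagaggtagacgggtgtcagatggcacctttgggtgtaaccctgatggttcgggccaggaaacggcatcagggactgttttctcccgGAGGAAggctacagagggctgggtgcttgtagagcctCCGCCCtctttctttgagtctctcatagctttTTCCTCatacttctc
Itgax: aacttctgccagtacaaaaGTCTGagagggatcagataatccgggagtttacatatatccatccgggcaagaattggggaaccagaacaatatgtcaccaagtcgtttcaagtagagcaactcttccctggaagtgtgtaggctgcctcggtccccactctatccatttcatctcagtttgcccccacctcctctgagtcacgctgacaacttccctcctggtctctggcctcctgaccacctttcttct
Itga4: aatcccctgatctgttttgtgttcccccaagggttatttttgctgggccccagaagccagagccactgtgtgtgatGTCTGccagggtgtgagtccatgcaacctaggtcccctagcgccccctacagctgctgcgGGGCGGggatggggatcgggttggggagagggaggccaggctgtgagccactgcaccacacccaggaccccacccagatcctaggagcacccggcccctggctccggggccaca

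GAGGAA is in the Itgam window at position -84 and, on the opposite strand (TTCCTC), at position -15, counted back from the start site. The same letters are in 23.3% of 32851 RefSeq promoter windows of the same length. CAGAC is on the opposite strand (GTCTG) at -231 in the Itgax window and at -174 in that of Itga4, and is in 42.2% of all windows. GGGCGG is at -114 in the Itga4 window and at -47, on the opposite strand (CCGCCC), in that of Itgam, and is in 32.7% of all windows. Windows were found for 5 of the 8 genes. Of these 5, 1 held GAGGAA, 3 held CAGAC (Itga4, Itgax and Itgb7) and 2 held GGGCGG. The Itga9 window, without a match, is at chr9:118711442-118711691. It lies inside the gene as placed above rather than before its first base, so the start of that longer span was not searched. Bases G and C made up 64.0% of the Itga4 window, 49.6% of that of Itgam and 50% of that of Itgax.

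Itga4 encodes alpha4 (CD49d), the alpha chain of the receptors VLA-4 and alpha4beta7. In control microglia it was near the bottom of the scale, at 0.2, 0.3, 1.3 and 1.6 TPM in mice 1, 2, 4 and 5. KO microglia held 22.5, 24.2, 26.3 and 28.4 TPM, all far above every control library. The mean rose from 0.85 ± 0.705 to 25.4 ± 2.56 TPM (SD, n = 4 each), a 29.8-fold difference. On the log2(TPM + 1) scale, which understates changes of low genes, the difference was 3.91 (SE 0.268, adjusted p = 5.54e-06, limma), the rise of rank 50 among 13054 tested genes. Itga4 reached the filter only through the KO libraries, so the filter favoured a rise, and the difference is given as a description of size. By mean level Itga4 moved from rank 13206 to rank 4193 of 35869. Cerkl, a gene that overlaps Itga4 on the opposite strand, was at 0.1 TPM or less in control microglia and at 1.3 to 2.9 TPM in KO microglia. Without a stated strand setting, reads from the stretch that the 2 genes share cannot be assigned to either.

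Itgb7, the beta7 partner that with alpha4 forms the gut-homing receptor for MAdCAM-1, did not accompany it. It was listed at 0.0, 0.0, 0.1 and 0.2 TPM in control microglia and at 0.1, 0.0, 0.0 and 0.0 TPM in KO microglia (exact two-sided permutation p = 0.714, adjusted 0.816). Itgb1, the other partner of alpha4, is not among the 8 genes and was at 86.2 to 104.0 TPM in control microglia and at 62.3 to 120.0 TPM in KO microglia. Its log2 difference was -0.10 and did not pass (SE 0.189, adjusted p = 0.761, limma). In each KO library Itgb1 was therefore present at a higher level per length than Itga4.

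Itga6 encodes alpha6 (CD49f), which binds laminin of basement membranes when paired with beta1 or beta4. Control microglia held 29.7, 22.9, 27.0 and 26.5 TPM and KO microglia 11.4, 11.2, 13.4 and 12.6 TPM. Every KO library was below every control library. The mean fell from 26.5 ± 2.80 to 12.2 ± 1.04 TPM (SD, n = 4 each), with a log2 difference of -1.06 (SE 0.128, adjusted p = 0.000206, limma).

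Itga9 encodes alpha9, which pairs with beta1 and binds tenascin-C, osteopontin and VCAM1. It was at 10.5, 5.2, 12 and 10.7 TPM in control microglia, mouse 2 being the lowest, and at 17.1, 16.7, 22.3 and 21.5 TPM in KO microglia. The ranges did not overlap. The mean rose from 9.60 ± 3.01 to 19.4 ± 2.91 TPM (SD, n = 4 each), a 2.02-fold difference, with a log2 difference of 0.99 (SE 0.239, adjusted p = 0.0123, limma).

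Among the 8 genes, the 3 alpha chains that can pair with beta1 changed places in KO microglia. Their sum was 28.4 to 40.4 TPM in control microglia and 51.0 to 62.5 TPM in KO microglia. Alpha chains outside the 8 are not in that sum. Among them, Itgav had a mean of 33.0 TPM in controls and 8.88 TPM in KO microglia, and Itga5 of 8.7 and 5.7 TPM. Itga6 made up 67.0% to 80.6% of that sum in controls and 20.2% to 22.4% in KO mice. Itga4 made up 0.495% to 4.12% in controls and 42.4% to 46.4% in KO mice, and Itga9 18.3% to 29.8% and then 32.1% to 36.0%. None of these 3 pairs of ranges overlapped. Across all 8 genes the order by mean level in control microglia was Itgam, Itgb2, Itga6, Itga9, Itgax, Itga4, Itgb7 and Itgal, in which neighbours from Itgax downwards overlapped. In KO microglia it was Itgb2, Itgam, Itga4, Itga9, Itga6, Itgax, Itgal and Itgb7, in which only the neighbours Itgax and Itgal overlapped.

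**Figure D2:**
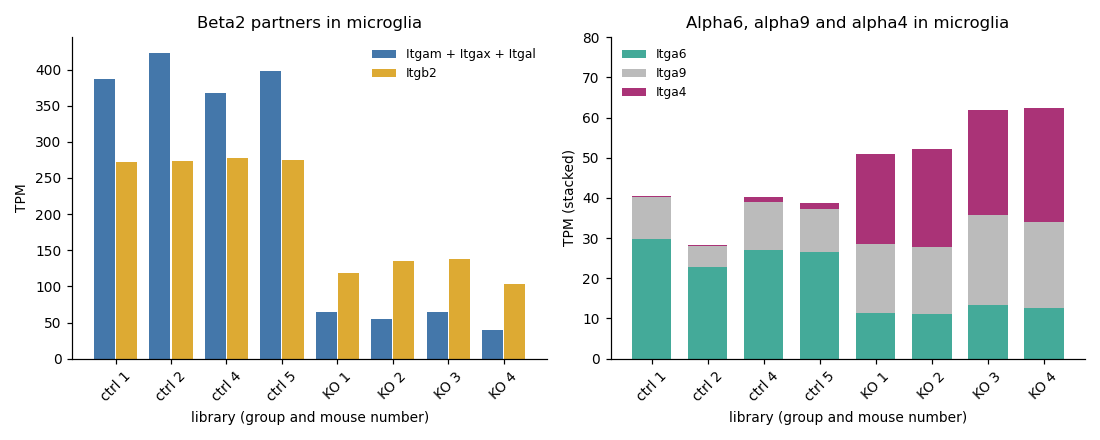
TPM of integrin partners in each microglial library (horizontal axis, group and mouse number). On the left, the sum of Itgam, Itgax and Itgal stands beside Itgb2 and is the taller bar in the 4 controls and the shorter in the 4 KO mice; on the right, Itga6, Itga9 and Itga4 are stacked, and Itga4 makes up at most 4.12% of a control bar and at least 42.4% of a KO bar.

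Markers of other cells moved with genotype in the microglial libraries, and their part in the integrin differences was not tested. The 12 markers of border-associated macrophages, the macrophages of meninges and perivascular spaces, summed to between 452.5 and 818.3 TPM in controls and to between 5746 and 6346 TPM in KO microglia, without overlap. Of the 11 tested, 7 rose, among them Ms4a7 (log2 difference 4.79), Pf4 (4.14) and Mrc1 (3.98). Cd209f (-1.43) and Cbr2 (-0.54) fell, and Cd163 (0.58) and Lyve1 (-1.24) did not pass. Over the 8 microglial libraries the marker sum and Itga4 were both higher in KO mice, without overlap. Within the 4 KO libraries both spanned a narrow range, and KO mouse 1 had the highest sum (6346 TPM) and the lowest Itga4 (22.5 TPM). An order over 4 such libraries is too little to relate the 2 values. The 8 monocyte markers summed to 5.3 to 10.7 TPM in controls and 2.8 to 5.6 TPM in KO microglia. Plac8 and Chil3 were listed at 0 in all 4 KO libraries. The 8 neutrophil markers summed to 28.1 to 69.4 TPM in controls and 9.4 to 11.5 TPM in KO microglia, with Ly6g and Cxcr2 at 0 in all 8 libraries. Only Csf3r of these markers could be tested, and it fell (-1.57), from 28.0 to 35.5 TPM in controls to 9.1 to 11.4 TPM. The lymphocyte markers, 11 of 12 of which are in the files, summed to 0.2 to 17.3 TPM and 3.7 to 8.3 TPM, with Ncr1 at 0 throughout. The 7 markers of dendritic cells, which are known for Itgax, summed to 26.5 to 50.2 TPM in controls and to 6.0 to 12.2 TPM in KO microglia. Among the 4 of these tested, Klrd1 (-2.76) and Cd209a (-2.07) fell, and Xcr1 (0.04) and Zbtb46 (0.33) did not pass. Klrd1, at 0.0 to 0.2 TPM in KO microglia, reached the filter only through the controls, so the filter favoured a fall. The 8 neuron markers summed to 5.1 to 10.3 TPM in controls and 16.8 to 72.6 TPM in KO microglia, and the 10 astrocyte markers to 297.8 to 630.2 TPM and 77.3 to 92.3 TPM, both without overlap. Among the 5 astrocyte markers tested, Slc1a3 fell (-3.42), Aldh1l1 (1.48) and Aldoc (1.25) rose, and Gfap (1.43) and Gja1 (-0.02) did not pass. Aldh1l1, at 0.0 to 0.4 TPM in control microglia, reached the filter only through the KO libraries, so the filter favoured a rise. Compared with control mice 1 and 2 alone, which like the KO mice held Xist, with Ddx3y at 0.1 TPM or less, the same 5 integrin genes passed: Itgam (-2.91), Itgb2 (-1.15), Itga4 (4.39), Itga6 (-1.05) and Itga9 (1.26), with adjusted p from 9.26e-06 to 0.0141 (limma).

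Astrocytes of the same mice showed no difference that passed. Of the 8 genes, 2 passed the filter and 0 were called, against 0.00657% of all 15231 tested genes, which is 1 gene. KO and control ranges overlapped for all 8. They did not for 4.4% of all tested genes (2.94% higher and 1.46% lower), a share that includes only Itga4 and Itga6 of the 8. Itga6 was the highest of the 8 in both groups, at 11.7, 9.6, 12.1, 12.3 and 10.1 TPM in control mice 1 to 5 and at 11.3, 15.3, 13.7 and 9.0 TPM in KO mice 1 to 4. Its log2 difference was 0.11 (SE 0.167, 95% interval -0.26 to 0.49, adjusted p = 0.796, limma), an interval that does not reach the fall seen in microglia.

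Itga4 was at 2.7, 1.4, 1.6, 4.3 and 3.2 TPM in control astrocytes and at 5.8, 1.0, 10.2 and 5.0 TPM in KO astrocytes. KO mouse 3 held the highest value and KO mouse 2 the lowest of all 9 libraries. The log2 difference was 0.66 (SE 0.453, 95% interval -0.35 to 1.66, adjusted p = 0.545, limma), and it was -0.0086 without KO astrocyte libraries 1 and 3. The 12 markers of mural and fibroblast-like cells, the cells around vessels, varied over the same libraries. They summed to 459.3, 208.2, 1077.1, 3228.1 and 2925.3 TPM in control mice 1 to 5 and to 6413.9, 773.1, 9678.2 and 3659.1 TPM in KO mice 1 to 4. The 5 libraries with the highest sums were also the 5 with the most Itga4, in the same order. Below these the orders differed. Control mouse 1, with a sum of 459.3 TPM, held more Itga4 than control mouse 3 or KO mouse 2, whose sums were higher. The endothelial markers summed to 36.0 to 183.1 TPM in controls and 42.3 to 538.6 TPM in KO astrocytes. Markers of oligodendrocyte precursors summed to 2.0 to 7.5 TPM in controls and 4.5 to 21.1 TPM in KO astrocytes. Both of these sums were highest in the same 5 libraries, in other orders. The part of such cells in the Itga4 values was not tested.

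**Figure D3:**
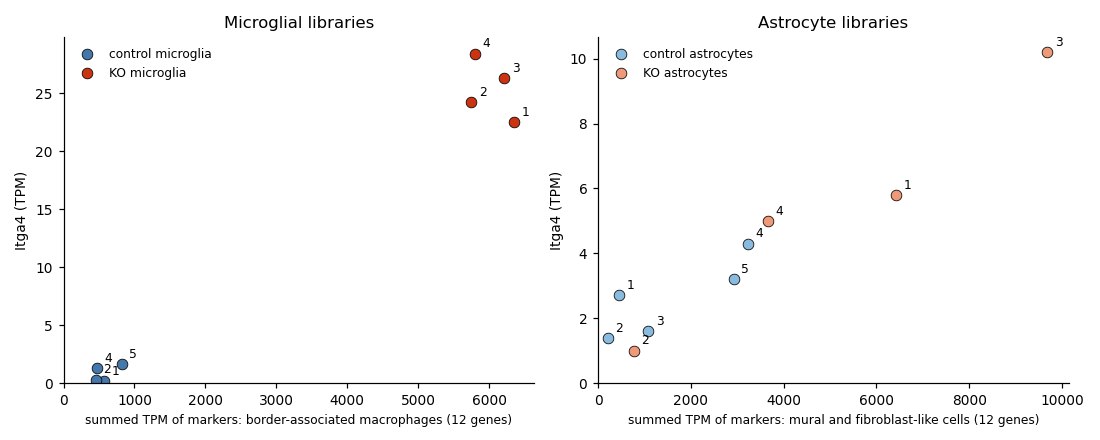
Itga4 (vertical axis, TPM) against the summed TPM of 12 markers of border-associated macrophages in the 8 microglial libraries (left) and of 12 markers of mural and fibroblast-like cells in the 9 astrocyte libraries (right). Points are libraries, numbered by mouse; microglia fall into a low control and a high KO cluster, and among astrocytes KO mouse 3 is highest on both axes.

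The other 6 genes were too low in astrocytes for the fit and were compared by exact two-sided permutation tests. Itgam was at 0.1, 2.0, 0.6, 0.4 and 1.0 TPM in controls and at 1.3, 0.1, 0.0 and 0.1 TPM in KO astrocytes (exact p = 0.325). Itgb2 was at 0.0, 2.2, 0.6, 0.1 and 0.0 TPM in controls and at 2.5, 0.2, 0.6 and 0.7 TPM in KO astrocytes (exact p = 0.429). KO mouse 1, the KO library with the most Itgam and Itgb2, also had the highest sum of border-associated macrophage markers, 100.6 TPM, against at most 30.9 TPM in the other 8 astrocyte libraries. Control mouse 2, with the most Itgam of all 9, had a sum of 5.0 TPM. Itga9 stayed at 0.6 TPM or less in every astrocyte library (exact p = 0.135), Itgal at 0.1 TPM or less (0.524) and Itgb7 at 0.7 TPM or less (1.0). Itgax was at 0.1 TPM or less in controls and at 0.1 to 0.2 TPM in KO astrocytes, where steps of 0.1 are the resolution of the files (exact p = 0.0397, adjusted over the 8 tests 0.159).

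Between the cell types of control mice, 6 genes could be tested, and 65.7% of all 15332 tested genes were called (26.2% higher and 39.5% lower in microglia). Itgam, Itgb2, Itga9 and Itgax reached the filter through microglia, so that a higher level there was largely fixed by the filter, and their differences are given as a description of size. Itgam (log2 difference 7.83, adjusted p = 1.27e-09) and Itgb2 (7.61, adjusted p = 8.25e-09) were the most unequal, followed by Itga9 (3.30, adjusted p = 2.88e-07), Itgax (1.94, adjusted p = 1.58e-05) and Itga6 (1.18, adjusted p = 1.64e-05), all higher in microglia (limma). The mean of control astrocytes was 0.210% of that of control microglia for Itgam, 0.211% for Itgb2 and 0.417% for Itga9. Homeostatic microglial markers measured the same way lay between 0.0637% and 22.9%, with a median of 0.132%. For Itga6 it was 42.1%. Itga4 reached the filter only through astrocytes, so that a lower level in microglia was favoured by the filter. It was lower in control microglia than in control astrocytes (log2 difference -0.996, SE 0.316, adjusted p = 0.0176, limma), but the ranges overlapped. That call was lost with quantile normalization (-0.45, adjusted p = 0.192), with control mice 3, 4 and 5 alone (-0.66, 0.126), and without the microglia of control mouse 1 (0.0552) or 2 (0.0518).

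In KO mice the order of the cell types was the other way round for Itga4 and no longer seen for Itga6. Of all 15365 tested genes 69.4% were called (26.4% higher and 42.9% lower in microglia). The 4 of 5 tested integrin genes higher in KO microglia, of which the first 3 again reached the filter through microglia, were Itgb2 (log2 difference 6.07), Itgam (5.38), Itga9 (4.07) and Itga4 (2.26, SE 0.440, adjusted p = 0.00122, limma). Itga6 differed by 0.00 on the log2 scale (95% interval -0.38 to 0.39, adjusted p = 0.993, limma), at means of 12.2 ± 1.04 TPM in KO microglia and 12.3 ± 2.76 TPM in KO astrocytes (SD, n = 4 each).

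The difference between the KO effects of the 2 cell types was tested as an interaction over all 17 libraries. Of 6 tested genes 4 passed, against 15.5% of all 17087 tested genes (6.63% higher and 8.87% lower). The effect in microglia was lower than that in astrocytes for Itgam (-2.46, SE 0.40, adjusted p = 0.000379), Itga6 (-1.18, SE 0.205, adjusted p = 0.000691) and Itgb2 (-1.54, SE 0.465, adjusted p = 0.0336), and higher for Itga4 (3.25, SE 0.570, adjusted p = 0.000744, limma). For Itgax (-1.16, adjusted p = 0.0549) and Itga9 (0.77, adjusted p = 0.0881) it did not pass. Itgam, Itgb2, Itgax and Itga9 were at 2.5 TPM or less in every astrocyte library, so for these 4 genes the test largely restates the microglial difference. Only Itga4 and Itga6 were measurable well enough to be tested in both cell types.

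Itga4 and Itga6 passed this test under every alternative run. For Itgb2, whose astrocyte values are near 0, the call was lost with the animal as a block (adjusted p = 0.0566), with a pseudocount of 0.1 TPM (0.161), without the filter (0.0587), with control mice 1 and 2 alone (0.267), and without any 1 of the microglia of control mice 1, 4 and 5 or KO mice 1 and 4 or the astrocytes of control mice 1, 4 and 5 or KO mouse 1 (at most 0.0691). For Itgam it was lost with a pseudocount of 0.1 TPM (-1.54, adjusted p = 0.339). Itga9 passed without the astrocytes of KO mouse 1 (0.0454), with quantile normalization (0.0227) or with a pseudocount of 5 TPM (0.0108). Itgax passed without the microglia of control mouse 1 (0.0199) or KO mouse 1 (0.0130) or with a pseudocount of 5 TPM (0.0496).

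**Figure D4:**
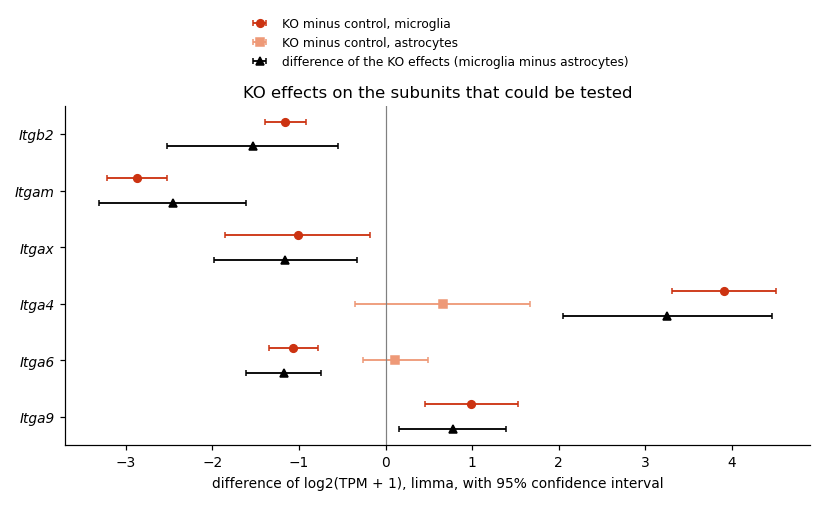
Differences of log2(TPM + 1) with 95% confidence intervals (limma) for each integrin gene that could be tested. Circles are KO minus control in microglia, squares the same in astrocytes (Itga4 and Itga6 only) and triangles the microglial minus the astrocyte effect; circles lie right of 0 for Itga4 and Itga9 and left of 0 for Itgb2, Itgam, Itgax and Itga6, and the square of Itga6 is at 0.11.

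Other genes of integrin function were followed in 4 lists. Of 18 other integrin subunits 6 could be tested in microglia, and 4 fell, 0 rose and 2 did not pass (Itgb1 and Itga5, at -0.55). Of all tested genes 28.4% were called, 14.2% in each direction, which is the background of this and the next 3 lists. The 6 subunits had a median log2 difference of -1.32 against 0.00399 over all tested genes. Itgav, the alpha chain of receptors that release latent TGF-beta from its complex, went from 33.0 ± 5.05 to 8.88 ± 2.43 TPM (-1.81, adjusted p = 0.000114, limma). Its partner Itgb5 went from 175 ± 16.4 to 75.8 ± 16.8 TPM (-1.22, adjusted p = 0.000323, limma), and Itgb3, another partner, fell by 2.21 on the log2 scale. Itgae, the E-cadherin receptor chain of resident lymphocytes, fell by 1.42 from a mean of 3.08 TPM. At 0.3 to 0.6 TPM in KO microglia, Itgae reached the filter only through the controls, so the filter favoured a fall. Among the 12 integrin genes tested in microglia, these 6 and 6 of the 8 leukocyte integrins, Itga4 and Itga9 rose, 7 fell and 3 did not pass.

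**Figure D5:**
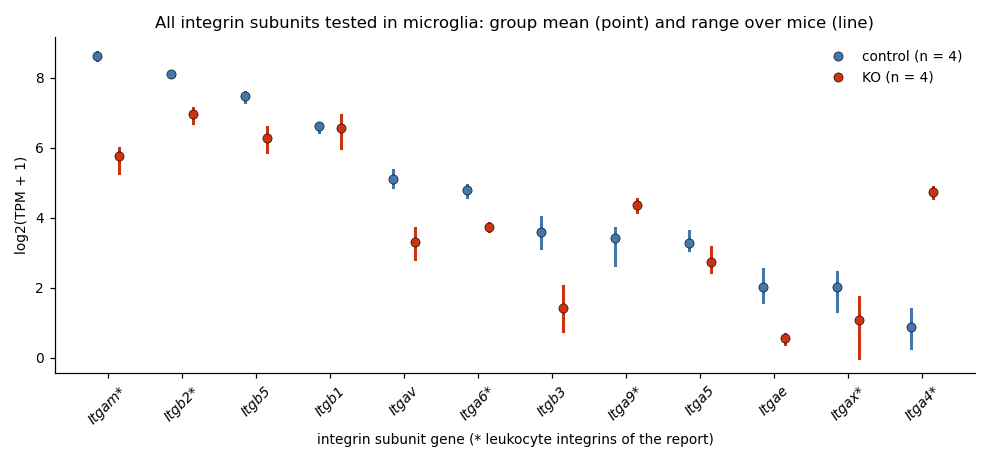
Level of each integrin subunit gene tested in microglia, as log2(TPM + 1), with the group mean as a point and the range over 4 mice as a line. Asterisks mark members of the 8 leukocyte integrins; KO points lie above control points for Itga9 and Itga4, and the ranges of Itgb1, Itga5 and Itgax overlap.

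Of 27 integrin ligand genes 14 could be tested in microglia, of which 1 rose, 5 fell and 8 did not pass (28.4% of all tested genes were called), with a median of 0.24. The one that rose was Vcam1, the ligand of alpha4beta1 and alpha9beta1, from 25.2 to 110.4 TPM in controls to 574.6 to 1155.3 TPM in KO microglia (log2 difference 4.06, SE 0.396, adjusted p = 5.09e-05, limma). F11r (JAM-A), a junction protein that binds LFA-1, went from 2076 ± 70.1 to 75.4 ± 15.7 TPM (-4.79, adjusted p = 5.29e-08, limma). Jam2 (JAM-B), a ligand of alpha4beta1, fell by 5.00 on the log2 scale to 0.5 to 2.8 TPM, and Npnt, a matrix ligand of alpha8beta1, fell by 2.19. Npnt, at 0.1 to 0.4 TPM in KO microglia, reached the filter only through the controls, so the filter favoured a fall. Named after their values were seen, Jam3 (JAM-C), a ligand of CD11b/CD18, fell by 2.00, and Icam1, a ligand of CD11a/CD18 and CD11b/CD18, by 1.51, from 268 ± 13.6 to 97.2 ± 28.4 TPM (SD, n = 4 each). In control astrocytes Vcam1 was at 766 ± 84.7 TPM (SD, n = 5), and in KO astrocytes at 795 ± 321 TPM (SD, n = 4).

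Of 25 genes that activate integrins or link them to actin 20 were tested in microglia, of which 3 rose, 6 fell and 11 did not pass (28.4% of all tested genes were called), with a median of -0.04. Rasgrp3, an exchange factor for Ras and Rap1, fell by 2.91 (SE 0.200, adjusted p = 5.62e-06, limma), from 74.3 ± 12.3 to 9.18 ± 2.54 TPM. Apbb1ip (RIAM), which brings talin to integrins through Rap1, fell by 1.51, and the adaptors Lims1 (PINCH) and Parvg (gamma-parvin) by 1.14 and 1.10. Named after their values were seen, Flna (0.77), Tln2 (0.68) and Ilk (0.28) were the 3 that rose. Fermt3 (kindlin-3), required for activation of leukocyte integrins, fell by 0.29 (adjusted p = 0.0469, limma) and remained at 298.8 TPM or more in each KO library, and Tln1 (talin-1) did not pass (0.44, adjusted p = 0.0888, limma).

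Of 14 genes of proximal leukocyte integrin signalling 12 were tested in microglia, and 3 rose, 5 fell and 4 did not pass (28.4% of all tested genes were called), with a median of 0.08. Plcg2, a phospholipase of immune receptor signalling, went from 150 ± 25.6 to 45.3 ± 5.56 TPM (-1.70, adjusted p = 1.92e-05, limma). Of the Vav exchange factors, Vav1 fell by 0.90 and Vav3 rose by 2.45, from at most 0.6 TPM to 5.3 to 8.1 TPM. Vav3 reached the filter only through the KO libraries, so the filter favoured a rise. The Src family kinase Fgr fell by 1.27 (adjusted p = 0.0223, limma). Named after their values were seen, Lyn (-0.53) also fell, and Cd47 (0.41) and Fcer1g (0.30) rose. In astrocytes none of the tested genes of these 4 lists passed: 11 subunits, 16 ligands, 18 genes of activation and linkage and 8 of signalling.

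Genes whose levels followed each integrin most closely were ranked by Pearson's r of log2(TPM + 1). Points of 1 cell type or genotype share their group difference, so a high r is reached by any gene with the same group means, and the values are descriptions. Over the 17 libraries Itgam was nearest to Selplg and Bin2 (both r = 0.996), Itgb2 to Gngt2 and Pld4 (both 0.997), Itga4 to Ifitm2 (0.973) and Mrap (0.949), Itga6 to Lpcat1 (0.970) and Slmap (0.958), Itga9 to Stab1 (0.994) and Hlx (0.993), and Itgax to Igf2bp2 (0.938) and Gm6583 (0.931). Over the 8 microglial libraries alone they were Numb and Cx3cr1 for Itgam (0.998 and 0.997), Pld4 and 1600014C10Rik for Itgb2 (both 0.998), Paox and Sema6d for Itga4 (0.997 and 0.996), Gm34589 and Wwc2 for Itga6 (0.999 and 0.997), Npepl1 and Ptbp3 for Itga9 (0.987 and 0.986) and Polm and Pcdhgb7 for Itgax (0.945 and 0.940). Only Pld4, near Itgb2, was among the 2 nearest genes in both sets of libraries.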

How the data were processed

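The authors deposited a TPM table for each library, rounded to 1 decimal, so that anything below 0.05 TPM reads 0, and no counting interval can be given. STAR 2.6.1e, featureCounts 1.6.2, cutadapt 1.9.1, Trim Galore 0.4.2 and the build mm10 are named, per the submitters' processing notes. The annotation and strand setting are not given in the sources used here. Mice numbered alike within a genotype gave both cell types. The members and gene lists were chosen with earlier results of these data known.

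Genes that reached 1 TPM in 4 or more of the libraries fitted were analysed as log2(TPM + 1) with limma 3.58.1 in R 4.3.3 (variance trend, two-sided), and p-values were adjusted by Benjamini and Hochberg over all tested genes at 0.05. The groups compared entered each fit, and all 4 groups the interaction. The script was tested on simulated data. Members below the filter were compared by exact permutation over all assignments with numpy 2.4.6 in Python 3.11.15. Named were all members, up to 4 called genes per pathway list with the smallest p, the 2 nearest genes per member, Tgfb1, and marker genes at 0 or beside a member. Positions are from GENCODE M21 (GRCm38) and promoters from RefSeq (GRCm38.p6). Deviations from group means of the 2 libraries of an animal correlated at 0.0300 to 0.189 over 8 animals, and pairing rests on the labels. Alternatives covered the pseudocount, filter, scaling, trend, weights, blocks, control sexes and each left-out library. Some genes of the lists are counted but not reported by name here.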

Additional observations from a re-analysis of the deposited data

Results flagged for a closer look

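In each of 21 combinations of a member and a group in which a library reached 1 TPM, the highest and the lowest library were compared with the rest of the group, a screen that chance alone trips in about 1 of 20 groups. Itgam in KO astrocytes was at 1.3 TPM in KO mouse 1, a gap to the next library of 0.923 of the group's range. Itgb2 in control astrocytes was at 2.2 TPM in control mouse 2, a gap of 0.727 of the range.

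The KO effect differed between microglia and astrocytes, by the interaction test in limma, for Itgam (-2.46 on the log2 scale, adjusted p = 0.000379), Itgb2 (-1.54, adjusted p = 0.0336), Itga4 (3.25, adjusted p = 0.000744) and Itga6 (-1.18, adjusted p = 0.000691).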

How the results depend on the processing

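Apart from leaving out libraries, 271 of 286 member results kept their direction and side of the threshold, and 242 of 262 did with 1 library left out. Between 5 and 6 members were called in KO microglia under every alternative, and 0 in astrocytes. The interaction called 2 members with a pseudocount of 0.1 TPM, against 4. Directions turned only for differences that were not called. Itga4 in astrocytes went from 0.66 to -0.0086 without KO libraries 1 and 3. The others were near 0. Itga6 between KO microglia and KO astrocytes turned with a pseudocount of 5 TPM (-0.0025), array weights (-0.091) or 1 library left out (-0.13 to 0.11). Itgb7 in astrocytes turned with a pseudocount of 0.1 TPM (0.15). The cause was not tested. The Tgfb1 difference lost its call without the filter (-0.57), with a replicate block (-0.60) and without any 1 of 5 of the 8 libraries (-0.62 to -0.50 over all 8), alternatives chosen after seeing the data.

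Replicate numbers pair control and KO mice in name only: deviations of the 7 same-numbered pairs correlated at -0.0756 to 0.176, and 0 of 6 microglial and 2 of 8 astrocyte libraries correlated best with their own number. With that number as a replicate block, 5 members stayed called in microglia and 0 in astrocytes, while the count over all genes went from 3711 to 2079. With the animal as a block the Itgb2 interaction lost its call (adjusted p = 0.0566, limma), and no other member call changed. Over all genes, calls in astrocytes went from 1 to 85 in 1 fit over all 4 groups, and calls between control cell types from 10078 to 6590 with control mice 1 and 2 alone. Quantile normalization moved the median of all genes from -0.19 to 0.08 between control cell types and from -0.24 to 0.10 between KO cell types. TPM files hold no depth, so how far low members (Itgal, Itgb7, Itgax) are limited by it is unknown.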

Other observations

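The library that was left out is titled as astrocytes of control mouse 3, a title that another library also bears, but its file is named for microglia. It held Itgam at 378.3 TPM, Itgb2 at 252.4 TPM, Itga6 at 23.1 TPM, Itga9 at 8.5 TPM, Itgax at 2.8 TPM, Itga4 at 2.3 TPM, Itgb7 at 0.2 TPM and Itgal at 0.0 TPM.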
